A study of Mus musculus with 4 samples.

Results

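Ribosome footprints of 72 genes for splicing factors and hnRNP proteins were measured in mouse embryonic fibroblasts after knockdown of eIF1A, a translation initiation factor, and in fibroblasts given a negative control siRNA. The genes are all rows of a table of 4878 genes whose symbol starts with Hnrnp, Srsf, Sf3a, Sf3b, Snrp, U2af, Prpf, Srrm, or Rbm and a digit. The rule uses names and no values. They fall into 14 hnRNP genes (Hnrnp), 10 SR protein genes (Srsf), 26 spliceosome core genes (10 Snrp, 9 Prpf, 3 Sf3a, 2 Sf3b and 2 U2af), 2 Srrm genes and 20 Rbm genes. In ribosome profiling, RNase I removes the unprotected RNA and the ribosome-covered fragments are sequenced. All cells were fibroblasts grown in 10 cm plates at passages 5 to 8, per the labels. Of the 4 libraries, 2 came from cells transfected with the labelled Si-Negative control and 2 from cells transfected with Si-eIF1A (X+18), both by a lipid reagent. No strain, age or other allele is given in the labels, nor is it said whether replicates were grown separately. Each p-value therefore reflects the spread of these libraries alone, which may be technical. The genes that encode eIF1A (Eif1ax, Eif1a) were not analysed here, and the depletion could not be checked. Without RNA-seq, which was not used here, the level of an mRNA and its translation are read together. In such bulk libraries, fewer cells of a type and less RNA per cell cannot be told apart.

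Splicing removes introns from pre-mRNA. The spliceosome is built from small nuclear RNAs that carry a ring of Sm proteins and particle-specific proteins (Snrp genes), from the SF3A and SF3B complexes and U2AF, which recognise the branch site and the 3' splice site, and from PRPF proteins, which build and rearrange the catalytic machine. SR proteins bind exons through RNA recognition motifs and recruit the spliceosome through arginine-serine repeats, while hnRNP proteins coat nascent RNA and often favour exon skipping. Many of these proteins limit their own mRNA through alternative exons that carry stop codons. The Rbm genes are a mixed set that shares the RNA-binding motif, and not all of them act in splicing. On the small subunit of the ribosome, eIF1A acts in scanning, the search from the cap through the 5' untranslated region (5' UTR or leader) for a start codon.

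Start codon triplets close to an annotated transcription start are shown because they are early triplets, for a scanning ribosome, of an RNA that begins at that start. Windows of the 50 bases after annotated starts were read from RefSeq (GRCm38.p6) for 64 of the 72 genes, 84 windows in all. ATG stood on the RNA's strand in 25.0% of these windows, in 29.3% of the 4955 windows of genes in the footprint table and in 44.3% of all 32851 windows. On the opposite strand it stood in 35.7%, 25.4% and 39.9%. Of the 21 genes with a window whose leader reads rose (below), 6 had an ATG in at least 1 window, as had 3 of 15 genes whose leader reads were tested and did not pass. Those 6 are printed 5' to 3' with 12 bases on either side and the ATG in capitals. The ATG begins at base 1 after the annotated start in Prpf19, base 3 in Prpf8 and base 8 in Hnrnph1, so all or some of the bases printed before it in these genes lie upstream of that start and are not part of the annotated RNA. In the other 3 it begins at base 23 to 36. For Hnrnph1 and Rbm25 the annotated start used lies inside the gene, whose span begins at 50375257 and 83632208. Which start the RNA in these cells used was not tested. Whether an ATG is the main start codon was not tested.
Hnrnph1, chr11:50378231-50378257, plus strand: agggccatttaaATGcctgttttctca
Prpf8, chr11:75486767-75486793, plus strand: ggcgtctattggATGagcttctgagcc
Prpf19, chr19:10895219-10895245, plus strand: ctgctcggttgcATGctgggaaagggc
Rbm25, chr12:83635730-83635756, plus strand: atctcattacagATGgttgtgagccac
Sf3b3, chr8:110846754-110846780, minus strand: tcttgaaggctaATGgcggacgccggc
Snrpa, chr7:27196235-27196261, minus strand: ggcagtcttagaATGcaccagagctct

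The TISU element, a start codon context known from mRNAs with very short leaders, has the core ATGGCGGC, which contains ATG. This core was found on the RNA's strand in 1 of the 84 windows (1.19%), against 2.87% of the windows of genes in the footprint table and 0.925% of all windows. The match lies in Rbm19, a gene of ribosome assembly, and is shown because it is the single one, with the core in capitals.
Rbm19, chr5:120116513-120116542, plus strand: actcgctaaaaATGGCGGCgcccagtgtgg
On the opposite strand the core was found in 3 of the 84 windows (3.57%), those of Hnrnpl, Hnrnpul1 and Sf3a1, against 0.727% and 0.265%. Rbm19 had 33.7 and 25.9 normalized coding reads in the controls and 50.9 and 52.7 in the knockdown libraries, and did not pass the test (log2 0.79, limma adjusted p = 0.0874).

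The deposited values are normalized reads per gene, given for the 5' UTR and for the coding sequence. The listed genes held 547916 to 617663 reads in the control libraries and 280649 to 458191 in the knockdown libraries, and the 72 genes held 2.70% to 2.83% and 3.23% to 3.43% of the coding reads in turn. Their median was 103 and 86 coding reads in the controls and 95 and 49 in the knockdown libraries. Over all listed genes it was lower, at 52 and 41 in the controls and 38 and 19 in the knockdown libraries. No column went below 1 read, so a listed single read may in fact be 0, and every value may carry an added read. Of 13 fibroblast markers, 4 were listed (Col5a1, Fn1, S100a4 and Vim), with summed values of 4824 and 6876 normalized coding reads in the controls and 3690 and 3173 in the knockdown libraries. No endothelial, leukocyte, muscle, adipocyte or erythroid marker was listed. Of the epithelial, neuronal and pericyte markers, 1 of 5, 2 of 3 and 2 of 3 were listed, and their sums were also lower in the knockdown libraries (109 to 146 against 71.8 to 82.4, 159.8 to 207 against 68.6 to 92.6, and 337 to 548 against 106 to 123). The part of depth and of these markers in the results was not tested.

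In coding footprints, where the median log2 change of all genes tested was -0.16, the core genes lay at a median of 0.60, the SR genes at 0.39 and the hnRNP genes at -0.29. These medians were not tested against each other. Among tested genes, 10 of 71 rose (14.1%, against 10.6% of all 4619 genes tested) and 5 fell (7.04%, against 18.7%), 29.3% of all genes being called in either direction, by limma with Benjamini-Hochberg adjustment over all genes, on log2 of normalized reads plus 1. The share that rose is near that of all genes. In 27 of the 71 genes the knockdown values both exceeded both control values (38.0%, against 26% of all genes), and in 21 they lay below both (29.6%, against 40.1%). The 10 that rose were 6 core genes, 2 Rbm genes, 1 hnRNP gene and 1 SR gene, and the 5 that fell were 3 Rbm and 2 hnRNP genes. With TMM factors, which move the median of all genes to 0.01, 19 rose and 4 fell, against 17.2% and 16.5% of all genes, and by edgeR 21 rose and 4 fell, against 19.5% and 17.6%. Leaving out control replicate 1 left 1 call and leaving out control replicate 2 left 0 (16 and 11 of 71 genes at an unadjusted p under 0.05 by limma, with no other tool run on 3 libraries), while leaving out knockdown replicate 1 or 2 gave 12 and 23 calls. The core median was 0.33 without control replicate 2. Without knockdown replicate 1 it was 0.10, below the SR median of 0.31, and the hnRNP median of -0.32 was then above that of all genes (-0.34). The SR median was 0.64 without control replicate 1, 0.14 without control replicate 2 and 0.61 without knockdown replicate 2, and the hnRNP median was -0.19 without control replicate 1. With quantile normalization the hnRNP median was -0.0085, against -0.0017 for all genes.

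**Figure D1:**
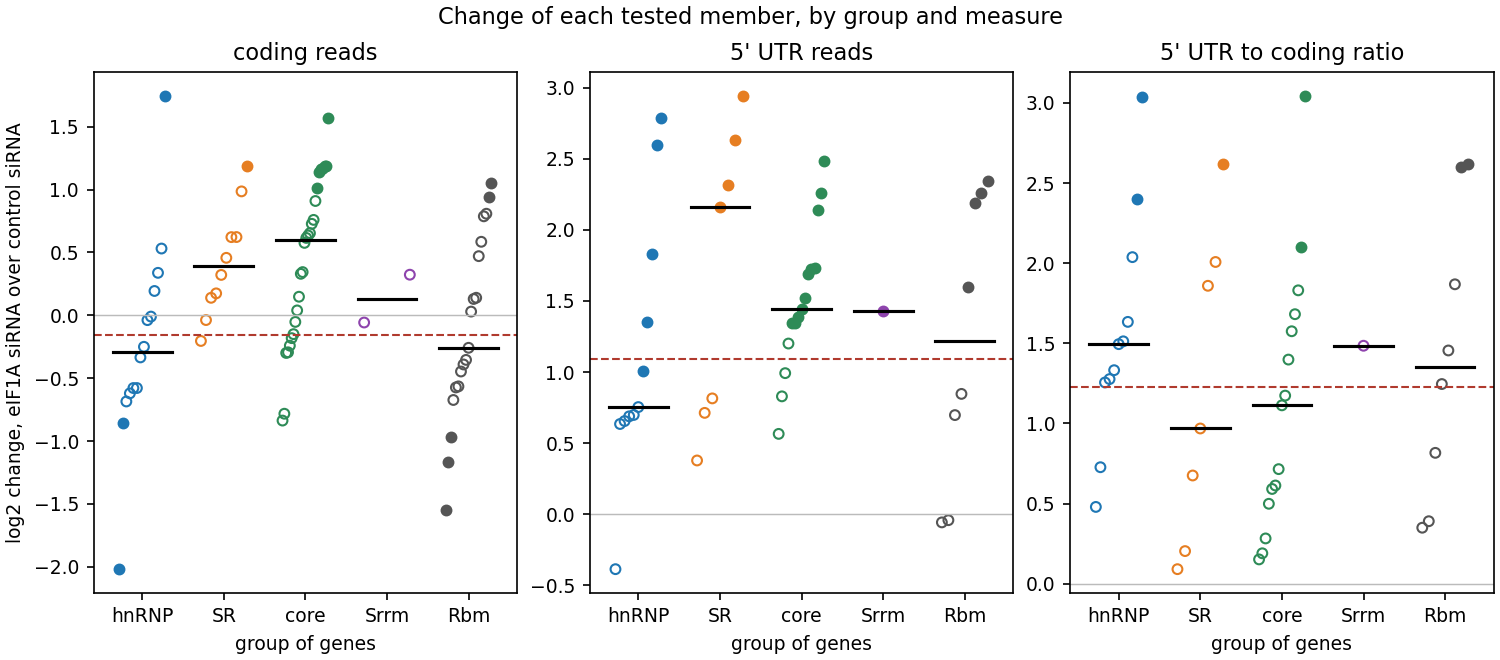
Log2 difference (knockdown minus control) of each tested gene (dots, filled where past the limma threshold) in coding reads, 5' UTR reads and their ratio, by group on the horizontal axis. Black lines are group medians and red dashed lines the medians of all genes tested, which are -0.16, 1.09 and 1.23 from left to right. Among coding reads the core median (0.60) lies above and the hnRNP median (-0.29) below that of all genes. With a filter at a mean of 50 normalized reads (not drawn), the hnRNP median was -0.33 and that of all genes -0.29.

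The balance between groups can also be read within a library, where scaling between libraries cancels. For 100 coding reads on hnRNP genes, the SR genes held 19.0 and 16.9 in the controls and 31.2 and 27.1 in the knockdown libraries. The core genes held 67.8 and 82.0 for 100 in the controls and 104.7 and 103 in the knockdown libraries. The Snrp genes alone held 11.1 and 12.6 against 25.5 and 20.2. In each of these comparisons both knockdown libraries lay above both controls. Of all coding reads, the hnRNP genes held 1.19% and 0.997% in the controls and 1.06% and 1.15% in the knockdown libraries, which overlap. The SR genes held 0.227% and 0.168% against 0.330% and 0.312%, and the core genes 0.809% and 0.817% against 1.11% and 1.19%, without overlap. These sums are led by the genes with most reads, and with 2 libraries against 2 an exact permutation test cannot give a p below 0.333, so none was run.

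Of 14 hnRNP genes, 1 rose in coding reads (7.14%, against 10.6% of all genes), 2 fell (14.3%, against 18.7%) and 11 did not pass. Both knockdown libraries lay below both controls in 8 of the 14 (57.1%, against 40.1% of all genes) and above them in 3 (21.4%, against 26%), and the median was -0.12 with TMM factors. The gene that rose was Hnrnpdl, a paralog of the AU-rich element binder Hnrnpd (chromosome 5, 100033577 to 100039936, GRCm38.p6, as for the positions of the genes that follow). Its normalized coding reads were 65.2 and 79.5 in the controls, replicate 1 first, and 245 and 243 after knockdown. The groups did not overlap, and the knockdown values were almost the same as each other. It rose by 1.75 ± 0.29 (SE) on the log2 scale (limma adjusted p = 0.000525), and the call was lost in 1 of 15 alternatives, without control replicate 2. It was the single coding call that remained without control replicate 1.

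Hnrnph2, the X-linked member of the hnRNP H and F family that binds G-rich RNA, had 182 and 106 normalized coding reads in the controls and 53.9 and 20.8 in the knockdown libraries. Knockdown replicate 2 was the lowest of the 4 libraries, with 13 reads before normalization. It fell (log2 -2.02 ± 0.40, SE, limma adjusted p = 0.00208). Hnrnpf, of the same family, had 395 and 315 against 223 and 169 and fell less (log2 -0.86 ± 0.29, limma adjusted p = 0.0369). Its call was lost in 8 of 15 alternatives, TMM factors among them (adjusted p = 0.0743 by limma). The other members of that family did not pass. Hnrnph1 had 315 and 211 against 352 and 247 and Hnrnph3 had 24.4 and 21.6 against 17.3 and 28.7, and in both genes the groups overlapped.

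The other hnRNP genes did not pass in coding reads. Hnrnpk, a poly-C binder, had 781 and 642 normalized coding reads in the controls and 556 and 348 in the knockdown libraries (limma adjusted p = 0.107). Hnrnpu, a nuclear matrix and chromatin-associated RNA binder, had 963 and 965 against 794 and 827 (adjusted p = 0.54, limma). Its related genes Hnrnpul1 and Hnrnpul2 had 188 and 214 against 124 and 145 and 289 and 271 against 190.2 and 184. In these 4 genes both knockdown libraries lay below both controls, as in Hnrnpa0 (166 and 136 against 89.5 and 105) and Hnrnpm (426 and 319.8 against 308 and 278). Hnrnpl, a CA-repeat binder, was nearly level, at 516 and 446 against 485 and 468 with overlapping groups. Hnrnpc, which binds uridine tracts, had 107 and 95.9 against 159 and 136 and Hnrnpab 252 and 249.8 against 353 and 286, above both controls but not past the threshold (limma adjusted p = 0.175 and 0.39).

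Of 10 SR protein genes, 1 rose in coding reads by limma (10.0%, near the 10.6% of all genes) and 9 did not pass. By limma 0 fell, against 18.7% of all genes (0 at an unadjusted p under 0.05, and 0 by edgeR). In 5 of the 10 both knockdown libraries lay above both controls (against 26% of all genes), by little in Srsf3. Srsf2, which binds exonic enhancers (chromosome 11, 116849897 to 116853675), had 93.9 and 74.3 normalized coding reads in the controls and 267 and 137 in the knockdown libraries. The knockdown libraries differed widely, and both were above both controls. It rose by 1.19 ± 0.33 (SE) on the log2 scale (limma adjusted p = 0.015), a call lost in 4 of 15 alternatives. Srsf1, the founding SR protein, had 112 and 74.3 against 165 and 121 (limma adjusted p = 0.145). Srsf3, the smallest SR protein, had 78.1 and 53.6 against 128 and 78.2, and Srsf10, a splicing repressor when dephosphorylated, 34.4 and 19.0 against 62.0 and 43.1 (limma adjusted p = 0.17 and 0.058). With TMM factors 4 SR genes passed, Srsf1, Srsf2, Srsf3 and Srsf10, all higher in the knockdown, as were 17.2% of all genes. Srsf6 had 174 and 152 against 198 and 209, without overlap and without passing. Srsf4, Srsf5, Srsf7, Srsf9 and Srsf11 overlapped between groups, with log2 changes from -0.20 to 0.46.

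Among the core genes, the proteins of the small nuclear ribonucleoproteins carried the rises. Of the 10 Snrp genes 5 rose and 5 did not pass, with a median log2 change of 1.15, and of the 7 that encode the Sm ring 4 rose, Snrpd1, Snrpd2, Snrpf and Snrpg. Snrpg (chromosome 6, 86371540 to 86378902) had 44.4 and 30.3 normalized coding reads in the controls and 87.5 and 140.5 in the knockdown libraries, which is a log2 difference of 1.57 ± 0.34 (SE, limma adjusted p = 0.0032). Snrpd2 had 30.8 and 41.5 against 95.6 and 71.8 (log2 1.19, limma adjusted p = 0.0129). Snrpd1 had 35.8 and 32.0 against 97.6 and 60.7 (log2 1.16, limma adjusted p = 0.017). Snrpf had 27.9 and 36.3 against 84.4 and 60.7 (log2 1.14, limma adjusted p = 0.0177). In these 4 genes both knockdown libraries lay above both controls, and each call was lost in 2 or 3 of 15 alternatives, those without control replicate 1 and without control replicate 2 among them.

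The other 3 Sm genes did not pass. Snrpe had 21.5 and 24.2 against 50.9 and 30.3 normalized coding reads without overlap (limma adjusted p = 0.136), while Snrpd3 (58.8 and 59.6 against 84.4 and 51.1) and Snrpb (193 and 184 against 197 and 119.7) overlapped. Of the particle-specific proteins, Snrpc, the U1 protein that contacts the 5' splice site, had 58.0 and 60.5 against 188 and 99.0. It rose by 1.19 ± 0.33 (SE, log2, limma adjusted p = 0.0146), though knockdown replicate 1 was far above replicate 2. Snrpa, another U1 protein, and Snrpa1, of U2, had 36.5 and 29.4 against 81.4 and 47.9 and 11.5 and 13.8 against 41.7 and 20.8, without overlap and just short of the threshold (limma adjusted p = 0.0607 and 0.0586). Snrp mRNAs have near-identical copies in the genome, and how shared reads were counted was not stated in the sources used here; single values are uncertain.

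The branch site factors were less uniform. Of 3 Sf3a genes, which encode the SF3A complex of the U2 particle, 1 rose (33.3%, against 10.6% of all genes). This was Sf3a2, which rose from 66.6 and 47.5 to 158 and 83.0 normalized coding reads (log2 1.01 ± 0.35, SE, limma adjusted p = 0.0384, lost in 5 of 15 alternatives). Sf3a1 had 171 and 173 against 211 and 222 and Sf3a3 76.7 and 55.3 against 151 and 68.6, and neither passed. Sf3b2 and Sf3b3, large subunits of SF3B, had 663 and 791 against 589 and 587 and 370.4 and 409 against 360.03 and 391, with log2 changes of -0.30 and -0.05 that did not pass. U2af1 and U2af2, the small and large subunits of U2AF, had 70.2 and 46.7 against 99.7 and 78.2 and 166 and 114 against 203 and 150.04 and did not pass (limma adjusted p = 0.159 and 0.421).

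No Prpf gene passed in coding reads by limma (3 of 9 at an unadjusted p under 0.05, and 1 by edgeR), against 29.3% of all genes. Their median log2 change of -0.15 was close to that of all genes. Prpf8, the large protein at the heart of the catalytic centre, had 422 and 605 normalized coding reads in the controls and 753 and 841 in the knockdown libraries, without overlap (limma adjusted p = 0.111). Prpf4b, a kinase, and Prpf38b lay below the controls, at 88.8 and 131 against 64.1 and 55.9 and 78.8 and 74.3 against 46.8 and 41.5 (limma adjusted p = 0.0539 and 0.067). Prpf3, Prpf6, Prpf18, Prpf19, Prpf31 and Prpf38a overlapped between groups, with log2 changes from -0.24 to 0.73. Prpf31 had 54.9 and 14.4 in knockdown replicates 1 and 2, so its value depended on the library.

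Of 19 Rbm genes tested in coding reads, 2 rose (10.5%, against 10.6% of all genes), 3 fell (15.8%, against 18.7%) and 14 did not pass. Both shares are near those of all genes. Rbm3, an RNA binder induced by cold, had 123 and 106 normalized coding reads in the controls and 295 and 164 in the knockdown libraries (log2 0.94 ± 0.32, SE, limma adjusted p = 0.0359, lost in 5 of 15 alternatives). Rbm22, a protein of the activated spliceosome, had 51.6 and 32.8 against 109 and 68.6 (log2 1.05, limma adjusted p = 0.0315, lost in 4 of 15). Rbm39, a U2AF-related splicing factor, had 245 and 194 against 108 and 86.2 and fell (log2 -1.17 ± 0.29, limma adjusted p = 0.00775, lost in 2 of 15). Rbm12 fell from 98.9 and 131 to 65.1 and 51.1 (log2 -0.97, limma adjusted p = 0.0277, lost in 6 of 15). Rbm43 fell from 27.9 and 25.1 to 14.2 and 4.79 (log2 -1.55, limma adjusted p = 0.0341, lost in 5 of 14), with only 3 reads in knockdown replicate 2. In all 5 genes the groups did not overlap.

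Rbm genes that did not pass lay on both sides. Rbm5 and Rbm10, related regulators of alternative exons, had 121 and 102 against 81.4 and 87.8 and 33.7 and 38.0 against 26.4 and 25.5 normalized coding reads. Rbm25, associated with the U1 particle, had 141 and 199.7 against 136 and 126 and Rbm17, an alternative splicing factor, 38.7 and 43.2 against 31.5 and 36.7. In these 4 genes both knockdown libraries lay below both controls, with limma adjusted p values from 0.335 to 0.592. Rbm34, a nucleolar protein, lay above, at 22.9 and 21.6 against 58.0 and 27.1 (limma adjusted p = 0.136). Of the Srrm genes, which encode large arginine-serine-rich coactivators, Srrm1 had 157 and 182 against 211 and 212 and Srrm2 848 and 1389 against 1079 and 1009, and neither passed. In Srrm2 the controls differed from each other by more than the groups did.

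**Figure D2:**
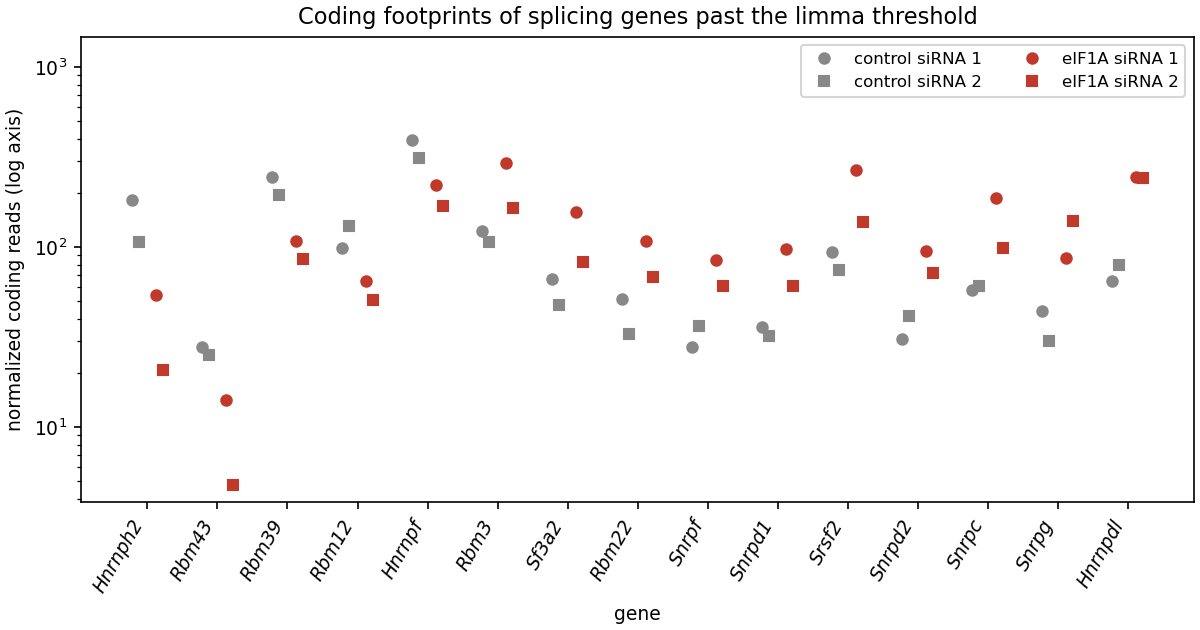
Normalized coding reads (log axis) of the 15 genes past the limma threshold, ordered by log2 change, in each library (grey, control siRNA; red, eIF1A siRNA; circles, replicate 1; squares, replicate 2). Hnrnph2 fell most, to 53.9 and 20.8, and Hnrnpdl rose most, to 245 and 243 from 65.2 and 79.5. In all 15 genes the groups do not overlap.

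Leader footprints rose in most genes that could be tested, within a rise across the table. Of the 72 genes, 42 reached the mean of 10 normalized leader reads needed for the test, and 25 of them rose (59.5%, against 44% of all 2101 genes tested), 0 fell by limma (0 also at an unadjusted p under 0.05, against 2.81% of all genes called, and 46.8% of all genes called in either direction) and 17 did not pass. The median log2 change was 1.37, against 1.09 for all genes tested. The 42 genes also had more leader reads in the controls, with medians of 18.3 and 24.2 normalized reads, against 12.9 and 16.4. The part of this in the share that rose was not tested. With TMM factors, which set that shared rise to -0.08, 14 of 43 rose and 5 fell, against 18.9% and 23.6% of all genes. By edgeR 13 rose and 5 fell, against 20.3% and 20.7%. In 35 of the 42 genes both knockdown values exceeded both controls and in 0 they lay below, against 67.4% and 7.19% of all genes. Of the 42, 9 passed the filter only through the knockdown libraries, 6 of which rose, and these had to be higher there. Without control replicate 1 or 2, 5 and 8 genes were called.

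**Figure D3:**
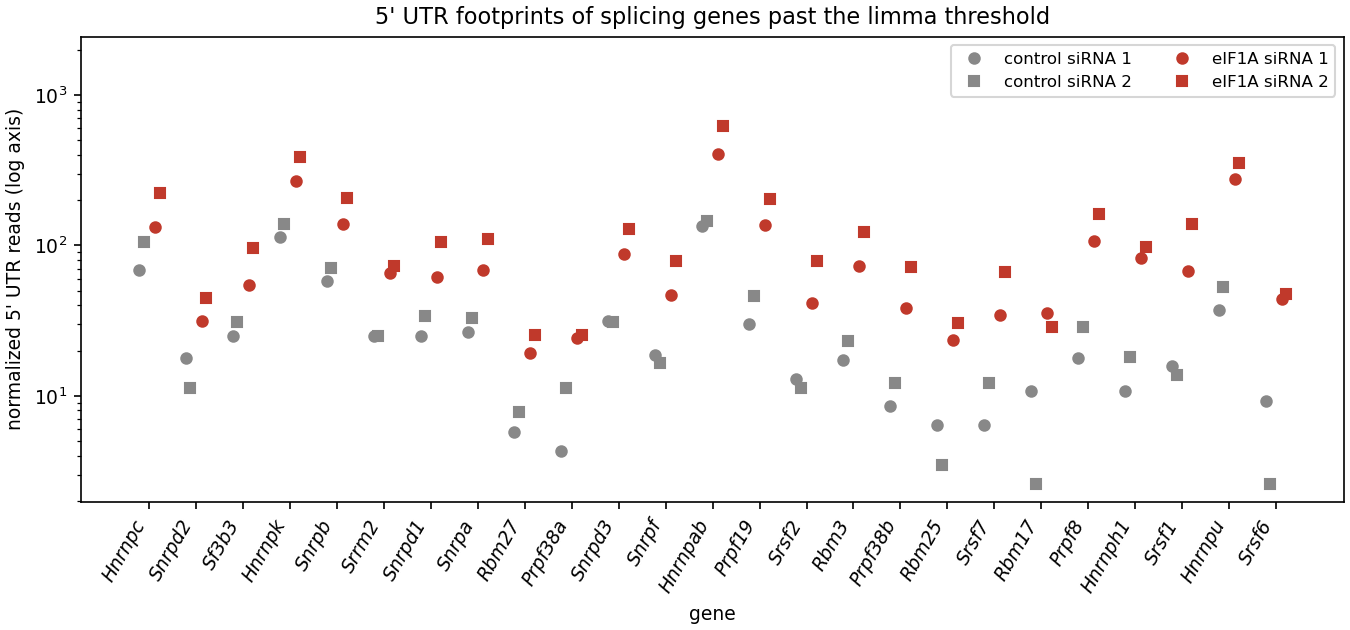
Normalized 5' UTR reads (log axis) of the 25 genes past the limma threshold, ordered by log2 change, in each library (grey, control siRNA; red, eIF1A siRNA; circles, replicate 1; squares, replicate 2). In each gene both knockdown libraries lie above both controls. Srsf6 rose most, from 9.31 and 2.59 to 43.7 and 47.9.

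Among hnRNP genes, 5 of 11 rose in leader reads and 6 did not pass, a share (45.5%) near the 44% of all genes. With TMM factors 3 rose and 1 fell. Hnrnpu (chromosome 1, 178321108 to 178338891) had 37.3 and 52.7 normalized leader reads in the controls and 275 and 353 in the knockdown libraries. The knockdown libraries stood far above both controls, which is a log2 difference of 2.78 ± 0.45 (SE, limma adjusted p = 2.79e-08), which is 1.69 above the median of all genes. This call was kept in all 15 alternatives. Hnrnph1 had 10.7 and 18.2 against 82.4 and 97.4 (log2 2.59, limma adjusted p = 5.37e-06) and Hnrnpab 134 and 145 against 404 and 618 (log2 1.83, limma adjusted p = 0.000108). Hnrnpk had 113 and 139 against 269.5 and 385 (log2 1.35, limma adjusted p = 0.00557), a call lost with TMM factors (log2 0.24). Hnrnpc passed narrowly, at 68.8 and 105 against 132 and 223 (log2 1.01, limma adjusted p = 0.0497), and its direction turned with TMM factors (log2 -0.10).

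Hnrnph2 was the hnRNP gene with the lowest leader change, at 68.8 and 102 normalized leader reads in the controls and 44.7 and 91.0 in the knockdown libraries, with overlapping groups (limma adjusted p = 0.506). With TMM factors it fell (log2 -1.49, limma adjusted p = 1.53e-07). Hnrnpf had 198 and 232 against 269.5 and 423 without overlap, and did not pass (limma adjusted p = 0.18). The hnRNP median of 0.75 was 0.34 below that of all genes, and stayed below it with TMM factors (-0.26 against -0.08) and with edgeR (-0.28 against 0.04).

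Of 7 SR genes tested, 4 rose in leader reads (57.1%, against 44% of all genes), by more than 2 on the log2 scale each. Srsf1 had 15.8 and 13.8 normalized leader reads in the controls and 67.1 and 139 in the knockdown libraries (log2 2.63 ± 0.50, SE, limma adjusted p = 3.33e-06), a call kept in all 15 alternatives. Srsf6 (chromosome 2, 162931508 to 162937121) had 9.31 and 2.59 against 43.7 and 47.9 (log2 2.94, limma adjusted p = 3.33e-06). Srsf2 had 12.9 and 11.2 against 41.7 and 78.2 (log2 2.16, limma adjusted p = 0.000259). Srsf7, which has a zinc knuckle, had 6.45 and 12.1 against 34.6 and 67.0 (log2 2.32, limma adjusted p = 0.000133). Srsf6 and Srsf7 passed the filter only through the knockdown libraries. These 4 calls held with TMM factors and with edgeR.

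Srsf3, Srsf5 and Srsf9 did not pass, and in each the groups overlapped, with knockdown replicate 1 below at least 1 control. Srsf3 had 43.7 and 51.0 against 41.7 and 145 normalized leader reads, Srsf5 70.9 and 104 against 69.2 and 180.4, and Srsf9 6.45 and 12.1 against 9.15 and 28.7. With TMM factors Srsf5 was called lower in the knockdown (log2 -0.73, limma adjusted p = 0.00754). Srsf9 passed the filter only through the knockdown libraries.

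All 15 core genes tested had both knockdown libraries above both controls in leader reads, as had 67.4% of all genes tested, and 11 of the 15 rose, against 44% of all genes. Of the 15, Prpf6 and Prpf38a passed the filter only through the knockdown libraries, and so had to be higher there. Prpf38a is among the 11. With TMM factors 4 of the 15 rose, against 18.9%. All 6 Snrp genes tested rose. Snrpf had 18.6 and 16.4 normalized leader reads in the controls and 46.8 and 78.2 in the knockdown libraries (log2 1.73, limma adjusted p = 0.0027). Snrpd3 had 31.5 and 31.1 against 87.5 and 128 (log2 1.72, limma adjusted p = 0.00154). Snrpa, Snrpd1, Snrpb and Snrpd2 rose by 1.34 to 1.52. Of the 6, the call of Snrpd3 alone held with TMM factors (log2 0.62, limma adjusted p = 0.0454).

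Of 6 Prpf genes tested, 4 rose in leader reads (66.7%, against 44% of all genes). Prpf8 had 17.9 and 28.5 normalized leader reads in the controls and 107 and 161 in the knockdown libraries (log2 2.48 ± 0.48, SE, limma adjusted p = 5.37e-06). Prpf19, a ubiquitin ligase that activates the spliceosome, had 30.1 and 45.8 against 136 and 204 (log2 2.14, limma adjusted p = 5.04e-05). Prpf38b had 8.60 and 12.1 against 38.6 and 71.8 (log2 2.26, limma adjusted p = 0.000156). These 3 calls held with TMM factors, and that of Prpf38a (log2 1.69) did not. Prpf38a and Prpf6 passed the filter only through the knockdown libraries. Sf3b3 rose by 1.35 (limma adjusted p = 0.0168), a call lost with TMM factors, and Sf3a1 and Sf3a2 did not pass (15.0 and 19.9 against 21.4 and 46.3 and 10.0 and 13.8 against 19.3 and 41.5).

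Of 8 Rbm genes tested, 4 rose in leader reads, a share (50%) near the 44% of all genes. With TMM factors 3 of 9 rose and 3 fell. Rbm3 had 17.2 and 23.3 normalized leader reads in the controls and 73.2 and 123 in the knockdown libraries (log2 2.19, limma adjusted p = 9.42e-05). Rbm17 had 10.7 and 2.59 against 35.6 and 28.7 (log2 2.34, limma adjusted p = 0.000366). Rbm25 had 6.45 and 3.46 against 23.4 and 30.3 (log2 2.26, limma adjusted p = 0.00102), and Rbm27, linked to RNA decay in the nucleus, rose by 1.60. Rbm17, Rbm25 and Rbm27 passed the filter only through the knockdown libraries. Rbm5 and Rbm10 had overlapping groups (21.5 and 25.9 against 19.3 and 27.1 and 25.8 and 25.9 against 12.2 and 49.5), and with TMM factors both were called lower (log2 -1.12 and -1.14, limma adjusted p = 0.00699 and 0.00488). Srrm2 rose, from 25.1 and 25.1 to 65.1 and 73.4 (log2 1.43, limma adjusted p = 0.0119, lost with TMM factors).

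Leaders of 30 genes could not be tested. In 9 of the 72 genes, Hnrnpdl, Hnrnpl, Hnrnpm, Sf3b2, Srrm1, Srsf11, Rbm14, Rbm15 and Rbm34, the leader was listed at 1 read in all 4 libraries, Hnrnpdl among them which rose in coding reads. In 7 more it was listed at 1 read in both controls and above that in at least 1 knockdown library, namely Prpf3, Sf3a3, Snrpc, Snrpe, Srsf4, Srsf10 and U2af1. Srsf10 had 7 and 14 leader reads in knockdown replicates 1 and 2, and Snrpc 5 and 15. Because 1 read may stand for 0, no fold is given for these genes.

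Leader reads for 100 coding reads were higher in the knockdown libraries, about as much as in the whole table. Of 42 genes tested for this ratio, 7 rose (16.7%, against 19.4% of all 1907 genes tested, and 19.5% in either direction), 0 fell by limma (0 also at an unadjusted p under 0.05 and 0 by edgeR, against 0.0524% of all genes by either tool) and 35 did not pass. The share that rose is near that of all genes, and so is the median log2 change (1.30, against 1.23). The hnRNP genes had a median of 1.49, the core genes 1.11 and the SR genes 0.97, and with TMM factors these were 0.21, -0.07 and -0.28. Without knockdown replicate 2 they were 0.99, 0.39 and 0.42, and without control replicate 1 the core median was 0.69. Without knockdown replicate 1 the SR and core medians were 1.89 and 1.73, and without control replicate 2 the SR median was 1.66. The median of all genes tested moved as well. It was 1.75 and 0.74 without knockdown replicate 1 or 2, and 1.06 and 1.45 without control replicate 1 or 2. Both knockdown values exceeded both controls in 27 of the 42 genes and lay below them in 0, against 64.1% and 1.52% of all genes. With TMM factors set for each region separately, which removes the shared rise, no gene passed (0 of 43 by limma, 6 at an unadjusted p under 0.05, and 10 of 42 by edgeR with the same factors for both regions), against 0% of all genes higher and 0.0528% lower with TMM factors, and 17.9% higher by edgeR. The median was then 0.00 with TMM factors. The 7 calls were also lost without control replicate 1 (0 calls) and without control replicate 2 (0 calls), with 5 and 3 of 46 genes at an unadjusted p under 0.05, and 26 genes were called without knockdown replicate 1.

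The 7 genes with a higher ratio had no rise in coding reads that passed. Of them, Rbm25, Srsf6 and Rbm17 passed the filter on leader reads only through the knockdown libraries, and so had to be higher there. Hnrnpu had 3.87 and 5.46 leader reads for 100 coding reads in the controls and 34.6 and 42.7 in the knockdown libraries (log2 3.03 ± 0.76, SE, limma adjusted p = 0.0026). Prpf38b (chromosome 3, 108902805 to 108911729) had 10.9 and 16.3 against 82.6 and 173 (log2 3.04, limma adjusted p = 0.00389). Rbm25 had 4.57 and 1.73 against 17.2 and 24.1 (log2 2.62, limma adjusted p = 0.00655). In each gene both knockdown libraries were well above both controls. Srsf6 had 5.35 and 1.70 against 22.1 and 22.9 (log2 2.62, limma adjusted p = 0.00689). Rbm17 had 27.8 and 6.0 against 113 and 78.3 (log2 2.60, limma adjusted p = 0.0125). Hnrnph1 had 3.41 and 8.61 against 23.4 and 39.4 (log2 2.40, limma adjusted p = 0.016), and Prpf19 16.9 and 31.4 against 77.5 and 131 (log2 2.10, limma adjusted p = 0.0463).

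The 6 Snrp genes tested had a median log2 change of the ratio of 0.60, against 1.23 for all genes tested. By limma 0 passed, against 19.4% of all genes higher (2 at an unadjusted p under 0.05, and 0 by edgeR). Snrpd1 had 70.0 and 105 leader reads for 100 coding reads in the controls and 63.5 and 174 in the knockdown libraries, Snrpd2 58.1 and 27.1 against 33.0 and 62.2, and Snrpf 66.7 and 45.2 against 55.4 and 129. In these 3 genes the groups overlapped, with knockdown replicate 1 below at least 1 control. Sf3a2 (log2 0.19) overlapped too. Because the coding count is the divisor of the ratio, these values are not independent of the coding results. Hnrnpk (limma adjusted p = 0.0504), Srsf1 (0.0535), Prpf8 (0.0607), Srsf7 (0.0741) and Rbm39 (0.0753) lay just outside the threshold.

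**Figure D4:**
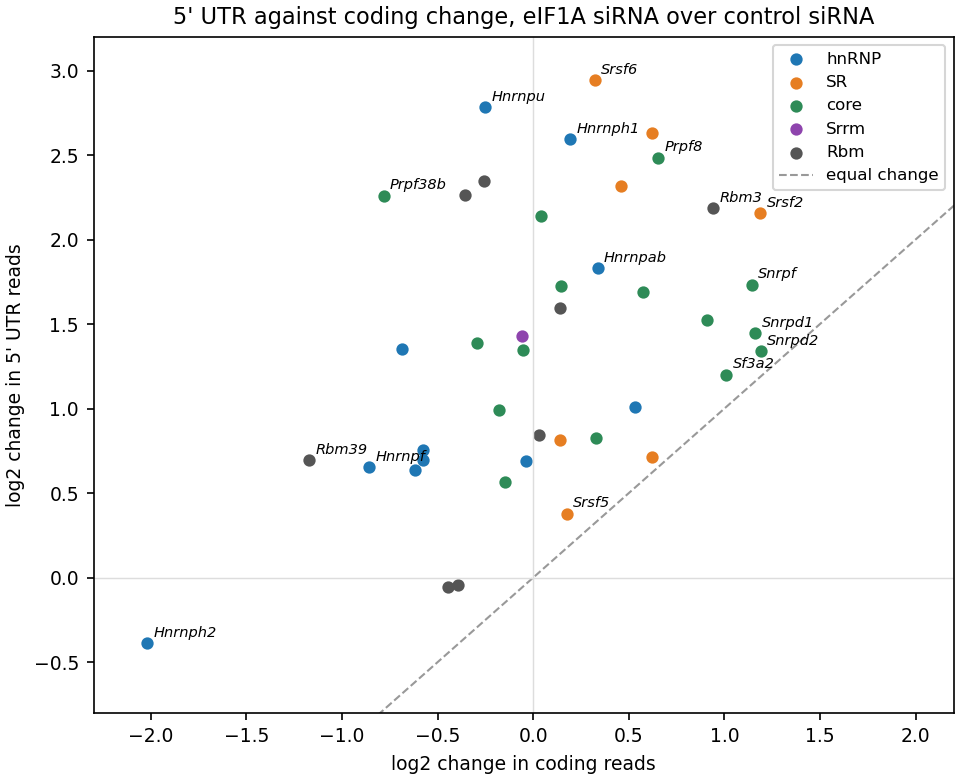
Log2 change in 5' UTR reads against log2 change in coding reads for the 42 genes tested in both, eIF1A siRNA over control siRNA, coloured by group, with a dashed line of equal change. All 42 genes lie above the line, by 0.09 in the gene nearest to it and by 3.04 in Prpf38b, and with separate TMM factors for each region the median distance is 0.00. Of all 1907 genes tested for the ratio (not drawn), 1752 lie above it. Among the 42, 9 passed the filter on leader reads only through the knockdown libraries, which favours a place above the line.

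Pooled over the genes of a group, the share of reads on the leader was higher in knockdown replicate 2 than in any other library. Over all hnRNP genes it was 14.2% and 19.0% in the controls (95% Wilson intervals 13.5% to 15.0% and 18.0% to 20.0%), and 29.5% and 42.0% in the knockdown libraries (28.3% to 30.7% and 40.4% to 43.5%). For the SR genes it was 15.9% and 23.3% in the controls (14.1% to 17.8% and 20.9% to 26.0%), and 20.5% and 43.1% in the knockdown libraries (18.5% to 22.6% and 40.1% to 46.1%), so knockdown replicate 1 lay between the controls. For the Snrp genes it was 26.3% and 28.3% in the controls (23.7% to 29.2% and 25.4% to 31.5%) against 31.3% and 50.8% (29.0% to 33.7% and 47.6% to 54.1%), and for the Prpf genes 7.41% and 10.04% (6.23% to 8.80% and 8.63% to 11.6%) against 21.0% and 29.2% (19.1% to 23.0% and 26.6% to 31.8%). Over all listed genes the controls had 11.6% and 13.7%, and the knockdown libraries 20.0% and 32.4%. The intervals cover counting error only, since reads may be copies of 1 molecule.

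**Figure D5:**
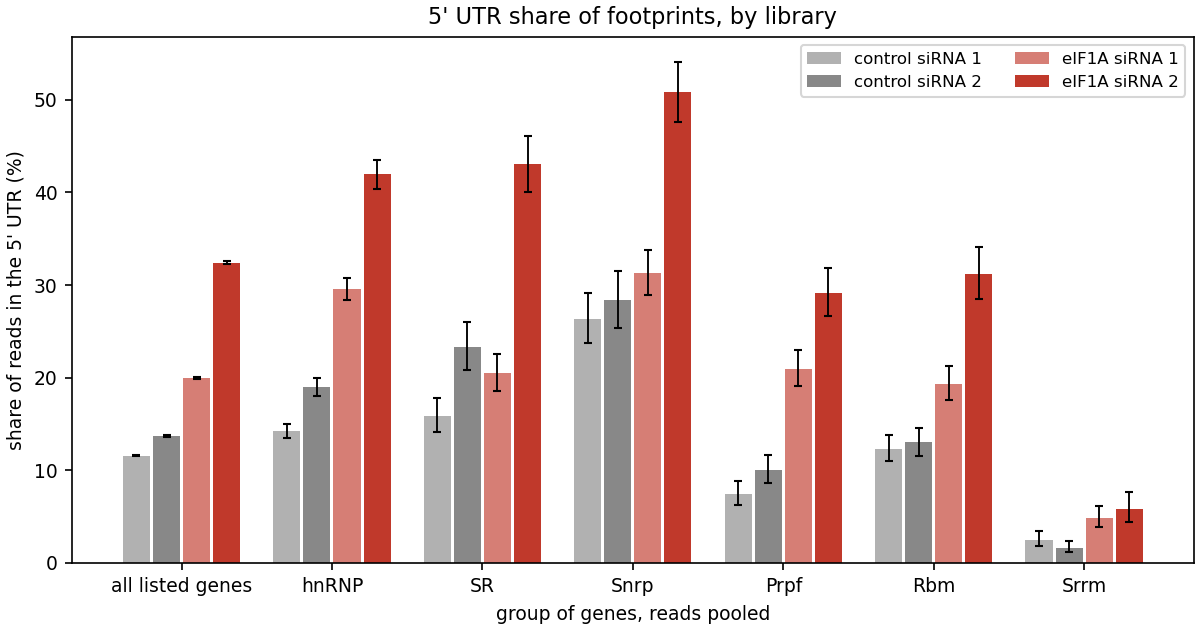
Share of footprint reads that lie in the 5' UTR (per cent of 5' UTR plus coding reads), pooled over each group of genes, in each library, with 95% Wilson intervals for counting error. Knockdown replicate 2 is the highest in each group, at 32.4% over all listed genes and 50.8% over the Snrp genes.

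Among other genes of splicing, 90 of a list of 122 were in the table (further spliceosome proteins, helicases, Lsm proteins, SR kinases, and RNA binders such as Ptbp1 and Sfpq). In coding reads 9 of 89 rose and 5 fell (10.1% and 5.62%, against 10.6% and 18.7% of all genes), with a median log2 change of -0.01. With TMM factors 14 rose and 0 fell by limma (5 were lower at an unadjusted p under 0.05, and 1 fell by edgeR). Lsm4 and Lsm7, of the Lsm ring of the U6 particle, rose by 1.61 each (limma adjusted p = 0.00232 and 0.00687), and Phf5a, a small SF3B subunit, by 1.52 (0.0146). Usp39 (1.48), Rnps1 (1.42) and Cherp (1.02) rose as well, and Sfpq and Syncrip were among those that fell (log2 -0.86 and -0.81, limma adjusted p = 0.0296 and 0.04). These 2 were not picked by smallest adjusted p. Both return below in the ratio, of which the coding count is the divisor. In leader reads 28 of 51 rose (54.9%, against 44% of all genes) and 0 fell by limma (0 at an unadjusted p under 0.05, and 5 by edgeR), with the smallest adjusted p in Elavl1, Smndc1, Lsm2, Txnl4a, Pcbp1 and Magoh (log2 2.18 to 3.16). With TMM factors 15 rose and 4 fell. In the ratio 16 of 50 rose (32.0%, against 19.4% of all genes), and those with the smallest adjusted p values included Dhx16 (log2 2.86), Sfpq (2.81), Syncrip (2.88), Scaf8 (2.63) and Khsrp (2.25). With TMM factors 0 of 50 passed by limma (8 at an unadjusted p under 0.05), and 15 rose by edgeR. Sfpq, a paraspeckle and splicing protein, had 3.49 and 5.05 leader reads for 100 coding reads in the controls and 25.7 and 36.1 in the knockdown libraries (limma adjusted p = 0.00479).

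The annotated span of 17 of the 72 genes overlaps that of another protein-coding gene in RefSeq, among them Hnrnpu, Hnrnpdl, Hnrnpf, Hnrnpk, Hnrnpab, Srsf2, Snrpa, Snrpf, Sf3b3, Prpf38a and Rbm12. The sources used here do not say whether counting used the strand, and reads of these genes and their neighbours may be mixed.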

How the data were processed

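Ribosome footprints were sequenced from 4 libraries of mouse embryonic fibroblasts, 2 given a control siRNA and 2 depleted of eIF1A. The deposited values are normalized read signal per gene for the 5' UTR and the coding sequence. Per the submitters' processing notes, cutadapt, Bowtie, TopHat2, HTSeq and DESeq2 were used with mm10; versions, strand setting and the handling of shared reads are not given in the sources used here. Whole reads were recovered from the steps of each column (100% of values whole within 0.001 reads).

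Values were tested as log2(normalized reads + 1) with limma 3.58.1 (lmFit and eBayes with a mean-variance trend) in R 4.3.3, where the 4 libraries averaged 10 or more normalized reads (in each region, for the ratio). Fold changes on this scale are understated for low genes. P-values were adjusted by Benjamini-Hochberg over all genes tested, with a threshold of 0.05. The alternatives were edgeR 4.0.16 and DESeq2 1.42.0 on the recovered reads (edgeR called 900 genes higher and 812 lower in coding reads), TMM factors and quantile normalization, other filters and pseudocounts, no trend, 1 read subtracted, a replicate block, and leaving out each library. On simulated data, the fits recovered 94.8% (coding, 4588 genes), 90.8% (5' UTR, 2057 genes) and 40.7% (ratio, 1864 genes) of 4-fold changes, and 29.9%, 32.6% and 1.16% of 2-fold changes. The simulation gave all genes the same spread beyond counting error, with balanced rises and falls. It had no shared rise of the 5' UTR, so these rates need not hold for the real libraries.

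All genes of the name rule may be named, with full statistics for up to 8 per group and measure past the threshold, and up to 6 other splicing genes per measure. In coding reads, Sfpq and Syncrip were named beyond these 6. The rule for the members uses names only, but it, the lists and the tests were chosen with earlier results of these data known. All 72 symbols matched RefSeq, as did 4668 of the 4878 in the table directly and 204 by an older name.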

Additional observations from a re-analysis of the deposited data

How the results depend on the processing

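The count of genes called in coding reads (15) was 23 with TMM factors, 25 by edgeR, 9 without the mean-variance trend and 26 with the replicate block, and 0 to 23 when 1 library was left out. The count in the 5' UTR (25) was 14 with a filter at a mean of 50 (21 genes tested), 16 with quantile normalization, 7 by DESeq2 and 5 to 35 when 1 library was left out. The count for the ratio (7) was 11 with a pseudocount of 5, 11 by DESeq2, 19 with the replicate block, 0 with TMM factors or quantile normalization (6 and 3 at an unadjusted p under 0.05 by limma, and 10 by edgeR), and 0 to 26 when 1 library was left out. The hnRNP coding median (-0.29) was -0.12 with TMM factors and -0.0085 with quantile normalization. The core coding median (0.60) was 0.34 with the filter at 50 and 0.10 to 0.68 when 1 library was left out. The coding median of all genes was -0.34 to -0.02 when 1 library was left out. For the ratio, the hnRNP median (1.49) was 0.21 and 0.20 with TMM factors and quantile normalization, and 0.99 to 1.95 when 1 library was left out. That of all genes was then 0.74 to 1.75. With TMM factors and quantile normalization the SR median (0.97) was -0.28 and -0.26 and the core median (1.11) -0.071 and 0.042. In the 5' UTR, Hnrnpc turned to -0.10 with TMM factors, -0.10 by edgeR and -0.14 by DESeq2, Hnrnpf to -0.46 by edgeR, and Srsf5 to -0.73 with TMM factors and -0.69 by edgeR. The causes were not tested, beyond the fewer genes or libraries that a filter or a left-out library leaves.

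The replicate numbers are shared by the groups, but the deviations of same-numbered libraries correlated at 0.26 in coding reads and -0.06 in the 5' UTR over 2 pairs, too few to show whether the numbers pair the libraries, which were treated as sharing only a number. Where 1 library was left out, the lone library of its group was assumed to vary like the other group. The deepest library held 617663 reads in listed genes and the shallowest 280649, and the median 5' UTR count of the 72 genes was 11 to 18.5 reads per library.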

Other observations

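Rbm47, an RNA-binding protein gene, was too low to be tested in coding reads, with 9.31 and 12.1 normalized coding reads in the controls and 5.09 and 6.38 after knockdown. Its 5' UTR had 10.03 and 8.64 normalized reads in the controls and 2.03 and 3.19 after knockdown. It was the single gene of the 72 whose 5' UTR values were lower in both knockdown libraries than in both controls, on 2 reads each.

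The 5' UTR held more reads than the coding sequence in both knockdown libraries in 4 of the 72 genes (Hnrnpab, Hnrnpf, Hnrnph3 and Snrpd3), in at least 1 knockdown library in 23, and in at least 1 control library in 5 (Hnrnpc, Rbm47, Snrpa, Snrpd1 and Srsf5). These genes were named after their values were seen. Of the 23, 22 had that excess in knockdown replicate 2, the library with the fewest reads. The excess there was not particular to these genes. In that library the median of 5' UTR reads, as a percentage of coding reads, was 108% over all 1907 genes tested for the ratio. It was 113% over the 42 of the 72 genes tested. In knockdown replicate 1 these medians were 51% and 38%. The share of all genes with such an excess was not counted.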
